A study of Mus musculus with 24 samples.

Results

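The well expressed genes of the mouse brain were compared between mice infused with angiotensin II and mice infused with vehicle. Of the 54532 genes measured, 13650 had a mean of at least 1 FPKM over these 12 mice, and these are the genes described here. FPKM is a count of fragments corrected for gene length and library size. The genes were chosen by their level and not by their response, and 12063 of them encode proteins. A gene near the limit could still pass through the group where it was higher. Just inside the limit lay Wfikkn2 and Fbxl8, both at or just over 1 FPKM, and just outside it lay Gm7902 and Kcnh6, both just under 1 FPKM.

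The series holds RNA sequencing of brain hemispheres from 24 mice in 4 groups, of which 2 groups of 6 mice are compared here. All were male wild-type C57BL/6J mice aged 8 to 12 weeks. One group received angiotensin II at 0.7 mg/kg/day under the skin from an osmotic minipump for 2 weeks, and the other received saline from the same kind of pump. Both groups also had a saline injection into the tail vein in place of amnion epithelial cells, and both had bupivacaine and carprofen at surgery. Each library came from a single mouse. Whole hemispheres hold all cell types of the brain, so a lower level in these data can mean fewer cells of a type or less RNA per cell, which cannot be told apart.

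Angiotensin II is the effector peptide of the renin-angiotensin system. Angiotensinogen, which astrocytes make in the brain, is cleaved by renin and then by angiotensin-converting enzyme, and the peptide acts mainly on the AT1 receptor, a receptor coupled to G proteins. In vessels the AT1 receptor drives contraction of smooth muscle, oxidant production and matrix deposition, and long infusion raises blood pressure. Circulating angiotensin II reaches neurons chiefly at sites with an open blood-brain barrier, whereas the endothelium, smooth muscle and pericytes of brain vessels are exposed to it, or to the pressure, throughout the brain.

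The libraries held 16536449 to 25308700 reads, and the well expressed genes took 98.9% of all FPKM and 99.0% of all reads. A median of 544.5 reads per mouse lay behind each gene, and 1109 genes had a median under 50 reads. The libraries fell into 2 sets unrelated to the infusion. FPKM of all genes summed to over 320000 in vehicle mice 5 and 6 and angiotensin II mouse 5 (the high set) and to less in the other 9 libraries (the low set). The first principal component, with 58.9% of the variance, separated these sets, and mitochondrial genes took 6.17% to 6.85% of the reads in the high set and 4.79% to 5.75% in the low set. The set was therefore a term in every main test, and many values are given by set where the sets differ. Means with an SD, and ranges given without a set, pool both sets. The high set holds 2 vehicle mice but 1 angiotensin II mouse, so such pooled values also carry the offset between sets. Angiotensin II mouse 4 held pituitary RNA, with 1115 FPKM of growth hormone (Gh) against at most 26.2 FPKM in the other mice, and no result below rests on pituitary genes. The brain label was borne out by its markers, since all 10 pan-neuronal, 12 astrocyte, 12 oligodendrocyte and 14 microglial markers were above 1 FPKM.

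The infusion was accompanied by small differences in the well expressed genes, and no single gene passed the adjusted threshold. With limma on log2(FPKM + 0.1) and Benjamini-Hochberg adjustment over the 24465 genes tested, 0 of the 13650 genes (0.0%) had an adjusted p under 0.05. The lowest adjusted p was 0.0705. A total of 424 genes (3.11%) had an unadjusted p under 0.05, of which 268 (1.96%) were higher and 156 (1.14%) lower with angiotensin II, whereas 5% of the genes would be 682.5. A fit of the recovered reads with limma voom gave 340 genes at this threshold and 0 at the adjusted one. The balance of directions moved with the scaling: rescaling each mouse by its median ratio gave 210 higher and 195 lower, and voom gave 131 higher and 209 lower. Differences below are log2 differences of angiotensin II minus vehicle on the log2(FPKM + 0.1) scale, which understates changes of weakly expressed genes.

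The differences were small against what the design could resolve. The median log2 difference over the 13650 genes was 0.01 and the median absolute difference 0.039, while the median standard error was 0.064 and the median 95% interval reached 0.139 to either side. The standard error fell from a median of 0.121 for genes of 1 to 2 FPKM to 0.043 for the 418 genes of at least 100 FPKM. Of those 418 genes, 0 had an unadjusted p under 0.05. Among genes of 10 to 100 FPKM the share was 2.53%, and among genes of 1 to 2 FPKM it was 3.63%. Protein-coding genes reached it in 309 of 12063 cases (2.56%) and the remaining genes, mostly pseudogenes and non-coding RNA, in 115 of 1587 (7.25%). A log2 difference beyond 0.5 in size was found for 193 genes (1.41%), which had a median of 6 reads per mouse. In 37 genes (0.271%) the groups did not overlap within either set of libraries, of which 28 were higher and 9 lower. Random labels within the sets, which allow 378 arrangements, would be expected to separate at least as large a share of genes.

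**Figure D1:**
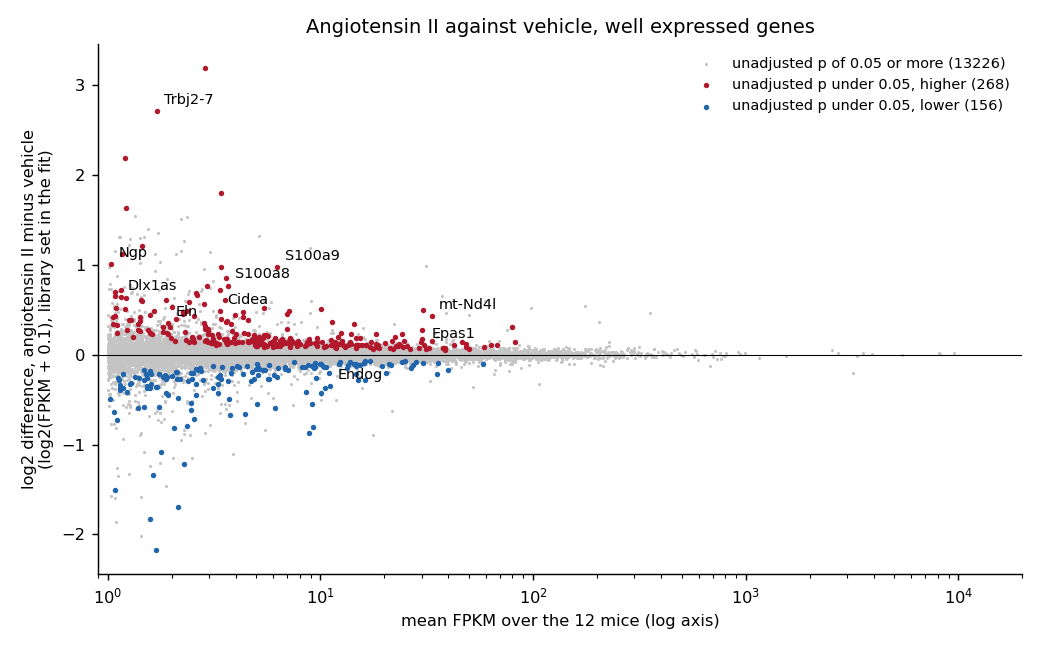
Log2 difference between angiotensin II and vehicle (vertical axis, log2(FPKM + 0.1) scale with the library set in the fit) against the mean FPKM over the 12 mice (log axis) for 13650 genes, with 1 point per gene. The 268 genes in red were higher and the 156 in blue lower at an unadjusted p under 0.05, and differences narrow around 0 as the level grows, with none of the 418 genes of at least 100 FPKM coloured.

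Genes of the renin-angiotensin system itself differed little. Of 19 genes of the system, 12 were well expressed, and 1 of these had an unadjusted p under 0.05. That gene was Mas1, the receptor of angiotensin-(1-7), which opposes many AT1 effects. Mas1 ranged from 4.62 to 5.75 FPKM (median 5.26) in vehicle mice and from 4.30 to 5.09 (median 4.64) in angiotensin II mice, so that the groups overlapped. Its log2 difference was -0.16 (SE 0.07, unadjusted p = 0.0413 in limma, adjusted p = 1.0). The exact permutation test within the library sets gave p = 0.0767, and the unadjusted p exceeded 0.05 in 7 of 12 fits that each left out 1 mouse, up to 0.108. Angiotensinogen (Agt), the substrate, was at 42.9 to 72.8 FPKM with vehicle and 47.3 to 67.3 with angiotensin II. Angiotensin-converting enzyme (Ace) was at 5.70 to 7.43 and 5.65 to 6.64 FPKM. Log2 differences of the 12 genes ran from -0.16 to 0.08, with a median of -0.01.

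The receptors of the peptide were below the level studied here. Agtr1a, the main AT1 receptor gene of the mouse, was at 0.0536 to 0.196 FPKM with vehicle and 0.144 to 0.301 with angiotensin II, on 3 to 15 reads per mouse. Agtr1b lay between 0 and 0.124 FPKM in all mice, and Agtr2, the AT2 receptor, between 0.271 and 0.576. Renin (Ren1) had 0 to 7 reads per mouse. Downstream of the receptors, 28 of 28 genes of angiotensin receptor signalling were well expressed, and 0 had an unadjusted p under 0.05. Oxidant production showed the same absence of calls, with 0 of 26 NADPH oxidase and antioxidant genes and a median difference of 0.02.

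Mural cells, the pericytes and smooth muscle cells that wrap brain vessels, gave the largest share of calls among the cell type lists of more than 10 well expressed genes. Of 11 well expressed mural genes, 3 were higher (27.3%) and 1 was lower (9.09%) at an unadjusted p under 0.05, beside 1.96% and 1.14% of all genes. This list, like the others, was written with earlier results of these data known, so its share is not independent evidence of an excess. The median difference of the 11 was 0.05, against 0.01 over all genes. The 14 genes of the list summed to 93.0 to 111 FPKM in the vehicle mice and 103 to 106 in the angiotensin II mice of the low set, so the summed levels of the groups overlapped. In the high set they summed to 162 and 178 FPKM in the vehicle mice and 178 in the angiotensin II mouse.

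Rgs5, a regulator of G protein signalling that marks pericytes, ranged from 17.6 to 21.1 FPKM (median 19.2) with vehicle and from 19.8 to 23.1 (median 20.6) with angiotensin II. The difference was 0.13 (SE 0.05, unadjusted p = 0.0145 in limma), and the exact permutation test gave p = 0.0212. Pdgfrb, the receptor by which pericytes are recruited to vessels, ranged from 4.69 to 4.96 FPKM (median 4.82) with vehicle and from 4.94 to 5.80 (median 5.15) with angiotensin II. Just the lowest angiotensin II mouse lay within the vehicle range. Its difference was 0.12 (SE 0.04, unadjusted p = 0.0200 in limma), and the exact permutation test gave p = 0.00529. Both genes were highest in angiotensin II mouse 5, and without that mouse neither kept an unadjusted p under 0.05. It was then 0.101 for Rgs5 and 0.133 for Pdgfrb in limma, beside exact permutation values above that used all 12 mice.

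Acta2, the actin of contractile smooth muscle, separated the library sets rather than the groups. In the low set it was at 5.87 to 10.1 FPKM with vehicle and 7.55 to 8.81 with angiotensin II. In the high set it was at 21.8 and 25.8 FPKM in the vehicle mice and 31.6 in the angiotensin II mouse. The difference with the set in the fit was 0.24 (SE 0.11, unadjusted p = 0.0443 in limma; exact permutation p = 0.0820), and it turned negative without the set term. The unadjusted p exceeded 0.05 in 9 of the 12 fits that left out 1 mouse, up to 0.151. The other contractile genes that were well expressed, Myh11 (1.20 to 3.27 FPKM with vehicle, 1.49 to 3.26 with angiotensin II), Myl9 and Des, did not reach the unadjusted threshold.

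Notch3, the Notch receptor of smooth muscle and pericytes, was lower. It held between 3.19 and 3.36 FPKM in the 6 vehicle mice and between 2.81 and 3.34 (median 2.97) with angiotensin II, where 5 of 6 mice lay below the lowest vehicle mouse. The difference was -0.12 (SE 0.05, unadjusted p = 0.0403 in limma; exact permutation p = 0.0185), and the unadjusted p exceeded 0.05 in 8 of 12 fits without 1 mouse, up to 0.0806. Heyl, a transcriptional repressor induced by Notch, was higher by 0.23 (SE 0.08, unadjusted p = 0.0109 in limma; exact permutation p = 0.00265, the smallest that 378 arrangements allow). Within each set no mouse of the groups overlapped, with 1.40 to 1.63 FPKM against 1.64 to 2.00 in the low set, and 2.36 and 2.56 against 3.14 in the high set. Without angiotensin II mouse 5 the unadjusted p of Heyl was 0.0518.

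**Figure D2:**
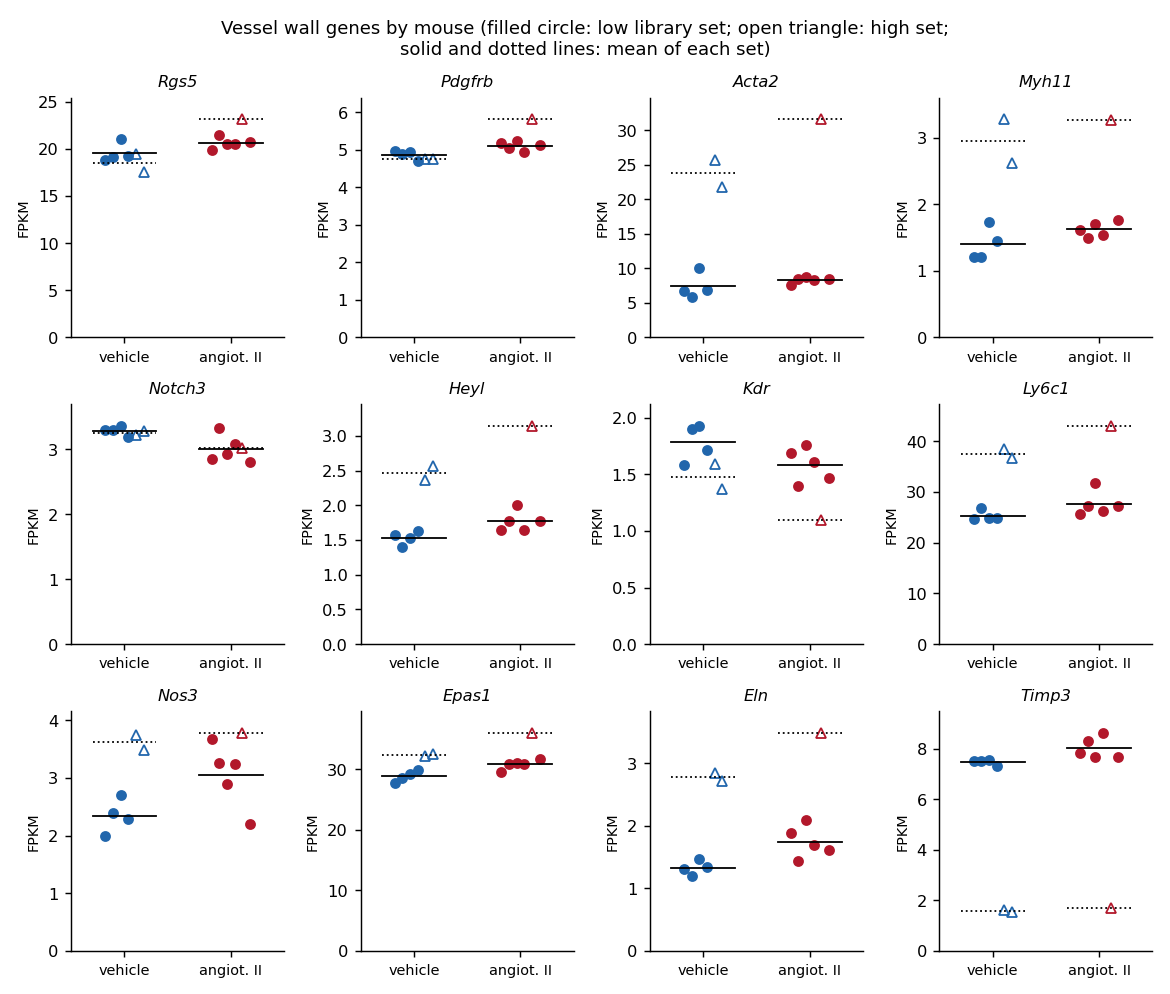
FPKM of 12 genes of vessel wall and matrix in each of the 6 vehicle mice (blue) and 6 angiotensin II mice (red), on axes that start at 0. Filled circles are mice of the low library set with a solid line at their mean, and open triangles are mice of the high set with a dotted line at their mean. In Acta2, Myh11 and Timp3 the sets lie further apart than the groups, whereas in Pdgfrb 5 of 6 angiotensin II mice lie above all vehicle mice.

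Endothelial genes gave 2 calls of 18, in opposite directions (5.56% each way), beside 1.96% higher and 1.14% lower among all genes. Ly6c1, a surface antigen of brain endothelium, was at 24.7 to 26.9 FPKM with vehicle and 25.6 to 31.7 with angiotensin II in the low set, and at 36.7 and 38.4 against 43.0 in the high set. It was higher by 0.14 (SE 0.05, unadjusted p = 0.0154 in limma; exact permutation p = 0.0132), with p = 0.0576 in limma without angiotensin II mouse 5. Kdr, the main VEGF receptor, ranged from 1.37 to 1.93 FPKM (median 1.65) with vehicle and from 1.101 to 1.76 (median 1.54) with angiotensin II. It was lower by a log2 difference of -0.21 (SE 0.09, unadjusted p = 0.0377 in limma; exact permutation p = 0.0370). The groups overlapped widely, and the unadjusted p exceeded 0.05 in 6 of 12 fits without 1 mouse, up to 0.145. Tight junction and transport genes were among the 16 without a call: Cldn5 averaged 50.9 ± 15.3 FPKM (SD, n = 6) with vehicle and 45.3 ± 9.88 (SD, n = 6) with angiotensin II, and the glucose transporter Slc2a1 averaged 31.2 ± 2.02 and 32.3 ± 3.65 FPKM (SD, n = 6 each). Summed over the 18 genes, endothelial expression was 464 to 501 FPKM in the vehicle mice and 467 to 502 in the angiotensin II mice of the low set. In the high set it was 667 and 757 FPKM in the vehicle mice and 702 in the angiotensin II mouse.

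Nos3 encodes the nitric oxide synthase of endothelium. It was the 1 call among 13 genes of nitric oxide and endothelin signalling (7.69% higher, beside 1.96% of all genes). It was at 1.99 to 2.71 FPKM with vehicle and 2.20 to 3.68 with angiotensin II in the low set, and 4 of these 5 angiotensin II mice exceeded the 4 vehicle mice. In the high set the vehicle mice had 3.49 and 3.75 FPKM and the angiotensin II mouse 3.78. The difference was 0.29 (SE 0.12, unadjusted p = 0.0318 in limma; exact permutation p = 0.0529), and its unadjusted p exceeded 0.05 in 6 of 12 fits without 1 mouse, up to 0.0874. Epas1, the hypoxia-inducible factor 2 alpha that is abundant in endothelium and pericytes, ranged from 27.8 to 32.5 FPKM (median 29.5) with vehicle and from 29.5 to 36.0 (median 31.0) with angiotensin II. Its difference was 0.11 (SE 0.03, unadjusted p = 0.00186 in limma; exact permutation p = 0.00529), and it rests on a median of 3068.5 reads per mouse. Its relative Hif1a averaged 9.01 ± 1.19 and 8.70 ± 0.43 FPKM (SD, n = 6 each), and 29 of 30 hypoxia and glycolysis genes were without a call.

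In the matrix, elastin (Eln), the core of elastic fibres in arteries, was higher. In the low set Eln was at 1.19 to 1.47 FPKM with vehicle and 1.43 to 2.10 with angiotensin II, with 4 of 5 angiotensin II mice above the 4 vehicle mice. In the high set the vehicle mice had 2.72 and 2.85 FPKM and the angiotensin II mouse 3.49. The difference was 0.35 (SE 0.09, unadjusted p = 0.00294 in limma; exact permutation p = 0.00794). Timp3, an inhibitor of matrix proteases, differed far more between the sets than between the groups, with 7.33 to 7.57 FPKM against 7.66 to 8.63 in the low set and 1.55 and 1.61 against 1.69 in the high set. Its difference was 0.10 (SE 0.04, unadjusted p = 0.0346 in limma; exact permutation p = 0.00794), and the unadjusted p exceeded 0.05 in 6 of 12 fits without 1 mouse, up to 0.0753. These were the 2 calls among 32 genes of TGF-beta signalling and matrix, both higher (6.25%, beside 1.96% of all genes). The median over the list was 0.01. Col4a1, a basement membrane collagen, averaged 4.99 ± 0.74 FPKM with vehicle and 5.62 ± 0.42 with angiotensin II (SD, n = 6 each) and did not pass.

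Of 12 neutrophil genes, 4 were well expressed, and S100a8, S100a9 and Ngp were higher at an unadjusted p under 0.05. The study named S100a8, S100a9 and Lcn2 from these same mice, so their values here are not independent evidence of their direction. Lcn2, the remaining well expressed gene, had a difference of 0.44 and did not pass the unadjusted threshold. Ngp and Lcn2 averaged below 1 FPKM with vehicle and passed the level limit through the angiotensin II mice, which favours a higher difference. The calls are therefore given gene by gene and cannot be read against the 1.96% higher among all genes. S100a8 and S100a9 encode the subunits of calprotectin, which neutrophils store in quantity, and Ngp encodes a neutrophil granule protein.

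S100a8 ranged from 1.75 to 3.69 FPKM (median 2.40) with vehicle and from 1.84 to 7.70 (median 4.44) with angiotensin II. The difference was 0.77 (SE 0.30, unadjusted p = 0.0248 in limma; exact permutation p = 0.0635). S100a9 ranged from 2.18 to 7.02 FPKM (median 3.65) with vehicle and from 3.47 to 10.9 (median 8.83) with angiotensin II, a difference of 0.97 (SE 0.34, unadjusted p = 0.0139 in limma; exact permutation p = 0.0344). Ngp ranged from 0.163 to 1.71 FPKM and from 0.566 to 2.91 FPKM, on 4 to 66 reads per mouse, with a difference of 1.005 (SE 0.43, unadjusted p = 0.0361 in limma; exact permutation p = 0.0767). In S100a8 and S100a9 1 of 6 angiotensin II mice lay within the vehicle range, and in Ngp 4 of 6 did. Leaving out vehicle mouse 3, angiotensin II mouse 3 or angiotensin II mouse 6 took S100a8 over the unadjusted threshold, with at most 0.0543 in limma. For Ngp 6 of 12 such fits did so, with at most 0.101, and for S100a9 none did.

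The 12 neutrophil genes summed to 6.91 to 15.1 FPKM (median 9.12) with vehicle and 8.25 to 27.7 (median 18.5) with angiotensin II. Other genes of the neutrophil lineage were close to 0, each with a higher mean with angiotensin II. Ly6g averaged 0.00694 FPKM with vehicle and 0.0717 with angiotensin II, Elane 0.0605 and 0.166, and Mpo 0.0676 and 0.136. Red cell genes, which mark blood left in the tissue, gave 0 calls of 5, with positive differences in 4 and a negative one in 1. Hba-a1, an alpha globin, ranged from 12.02 to 76.5 FPKM (median 28.3) with vehicle and from 16.1 to 72.4 (median 31.5) with angiotensin II, and the median difference of the 5 well expressed red cell genes was 0.45. The 8 red cell genes summed to a median of 135 FPKM with vehicle and 138 with angiotensin II over both sets. In the low set the sums were 83.7 to 154 FPKM (median 104) with vehicle and 87.8 to 249 (median 128) with angiotensin II. The part of residual blood in the neutrophil result was not tested.

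The upstream sequences of these 3 genes are shown because the genes were higher together in both pairs of groups examined here. They were taken from RefSeq on GRCm38.p6 and stop before the more upstream of the RefSeq start and the start in the deposited table. S100a8 lies at chr3:90668978-90670035 on the plus strand, S100a9 at chr3:90692632-90695721 on the minus strand, and Ngp at chr9:110419747-110423012 on the plus strand. Capitals mark matches to TTGCNNAA, a core of sites bound by C/EBP factors, on either strand.
S100a8, chr3:90668821-90668977, plus strand: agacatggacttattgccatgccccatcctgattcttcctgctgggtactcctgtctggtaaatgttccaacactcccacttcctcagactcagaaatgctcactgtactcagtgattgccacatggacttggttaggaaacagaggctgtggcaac
S100a9, chr3:90695722-90695971, minus strand: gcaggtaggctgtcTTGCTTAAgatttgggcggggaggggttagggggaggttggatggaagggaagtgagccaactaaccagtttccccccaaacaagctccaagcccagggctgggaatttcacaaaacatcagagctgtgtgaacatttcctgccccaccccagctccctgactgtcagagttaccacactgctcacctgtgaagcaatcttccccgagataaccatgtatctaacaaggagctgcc
Ngp, chr9:110419558-110419746, plus strand: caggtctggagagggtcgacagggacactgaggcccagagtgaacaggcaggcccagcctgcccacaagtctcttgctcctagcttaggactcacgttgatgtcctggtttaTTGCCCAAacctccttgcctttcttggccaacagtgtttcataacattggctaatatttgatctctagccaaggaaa

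Within 250 bases before the RefSeq start, S100a9 held 1 match, Ngp 2 and S100a8 0. The second match of Ngp, 11 bases before the RefSeq start, lies beyond the end of the printed stretch. Of 32817 mouse promoter windows of the same length, 3141 (9.57%) held at least 1 match. The TATA box letters TATAAA, searched on both strands and overlapping no match above, occurred in S100a8, 30 bases before its RefSeq start and also beyond the printed stretch, and in 12.4% of all windows. A match is a run of letters and not a shown binding site, and the absence of one says only that these letters are not in the window.

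Other immune genes of the brain differed less. Microglial markers gave 0 calls of 14, with a median difference of 0.01, and C1qa, a complement subunit made by microglia, averaged 50.1 ± 16.7 FPKM with vehicle and 46.0 ± 10.6 with angiotensin II (SD, n = 6 each). Complement gave 0 calls of 11, with positive differences in 10 of the 11 and a median of 0.06. Interferon-stimulated genes gave 0 of 17 with a median of 0.05, MHC class I and antigen processing 0 of 12, and chemokines and leukocyte adhesion 0 of 12. Of 11 perivascular macrophage genes, 6 were well expressed, 5 of them with positive differences and none past the unadjusted threshold, with a median of 0.15.

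Cytokine feedback genes gave 3 calls of 23, each lower, beside 1.14% lower among all genes, while 11 of the 23 were higher and 12 lower. The study named Cebpb, a transcription factor of acute inflammation, from these same mice. Cebpb ranged from 3.41 to 5.53 FPKM (median 3.79) with vehicle and from 2.24 to 4.26 (median 3.17) with angiotensin II, and its difference was -0.29 (SE 0.10, unadjusted p = 0.0115 in limma; exact permutation p = 0.0159). Jak3, a kinase of cytokine receptors, ranged from 2.00 to 2.56 FPKM (median 2.20) and from 1.78 to 2.12 (median 1.92), with a difference of -0.20 (SE 0.09, unadjusted p = 0.0397 in limma; exact permutation p = 0.0397). Socs2, a suppressor of cytokine signalling, was at 1.65 to 1.83 FPKM with vehicle and 1.53 to 1.62 with angiotensin II in the low set, and at 0.975 and 1.06 against 0.804 in the high set, so that the groups did not overlap within either set. Its difference was -0.17 (SE 0.07, unadjusted p = 0.0418 in limma; exact permutation p = 0.00265). The unadjusted p exceeded 0.05 in 6 of 12 fits without 1 mouse for Jak3 and in 9 for Socs2, up to 0.130 and 0.148.

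Markers of the main neuronal and glial types gave no calls. The pan-neuronal, astrocyte, oligodendrocyte, excitatory neuron, interneuron and striatal lists gave 0 calls of 10, 12, 12, 12, 15 and 15 genes, with medians between -0.04 and 0.03. Gfap, the intermediate filament of reactive astrocytes, averaged 77.0 ± 12.7 FPKM with vehicle and 77.1 ± 9.59 with angiotensin II (SD, n = 6 each), and Mbp, the myelin basic protein, 531 ± 104 and 509 ± 99.6 FPKM (SD, n = 6 each). Synaptic genes gave 0 calls of 42 and glutamate and GABA receptors 0 of 38. Cerebellar markers were lower in 12 of 12 cases, beside 6173 of all 13650 genes, with a median of -0.10, and none passed the unadjusted threshold. The largest of these differences was in Neurod1, a transcription factor of granule cells, at 12.9 to 19.8 FPKM (median 16.9) with vehicle and 10.9 to 16.7 (median 14.0) with angiotensin II. In the other 12 mice of the series, which received amnion epithelial cells, the median of the cerebellar list was also -0.10, with 0 calls.

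Isolated calls occurred in rarer cell types, beside 3.11% of all genes. Chat, which makes acetylcholine, ranged from 0.557 to 1.22 FPKM (median 1.09) with vehicle and from 0.968 to 1.41 (median 1.26) with angiotensin II, and was the 1 call of 7 monoaminergic and cholinergic genes (difference 0.24, SE 0.10, unadjusted p = 0.0391 in limma), although it overlaps Slc18a3 on the same strand. Pdgfra, the growth factor receptor of oligodendrocyte precursors, was at 3.28 to 3.57 FPKM against 3.46 to 3.75 in the low set and at 1.78 and 1.79 against 2.20 in the high set (difference 0.13, SE 0.05, unadjusted p = 0.0265 in limma), and it was the 1 call of 11. Otx2, a homeobox factor that choroid plexus and midbrain express, was lower by a difference of -0.37 (SE 0.16, unadjusted p = 0.0465 in limma). Otx2 ranged from 1.24 to 2.14 FPKM (median 1.76) with vehicle and from 0.667 to 1.90 (median 1.53) with angiotensin II, the lowest being angiotensin II mouse 5. Transthyretin (Ttr), the most abundant choroid plexus gene, was at 545 to 1112 FPKM with vehicle and 492 to 842 in the angiotensin II mice, and its difference did not pass. The unadjusted p exceeded 0.05 in 7, 3 and 7 of the 12 fits without 1 mouse for Chat, Pdgfra and Otx2, up to 0.174, 0.136 and 0.304.

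**Figure D3:**
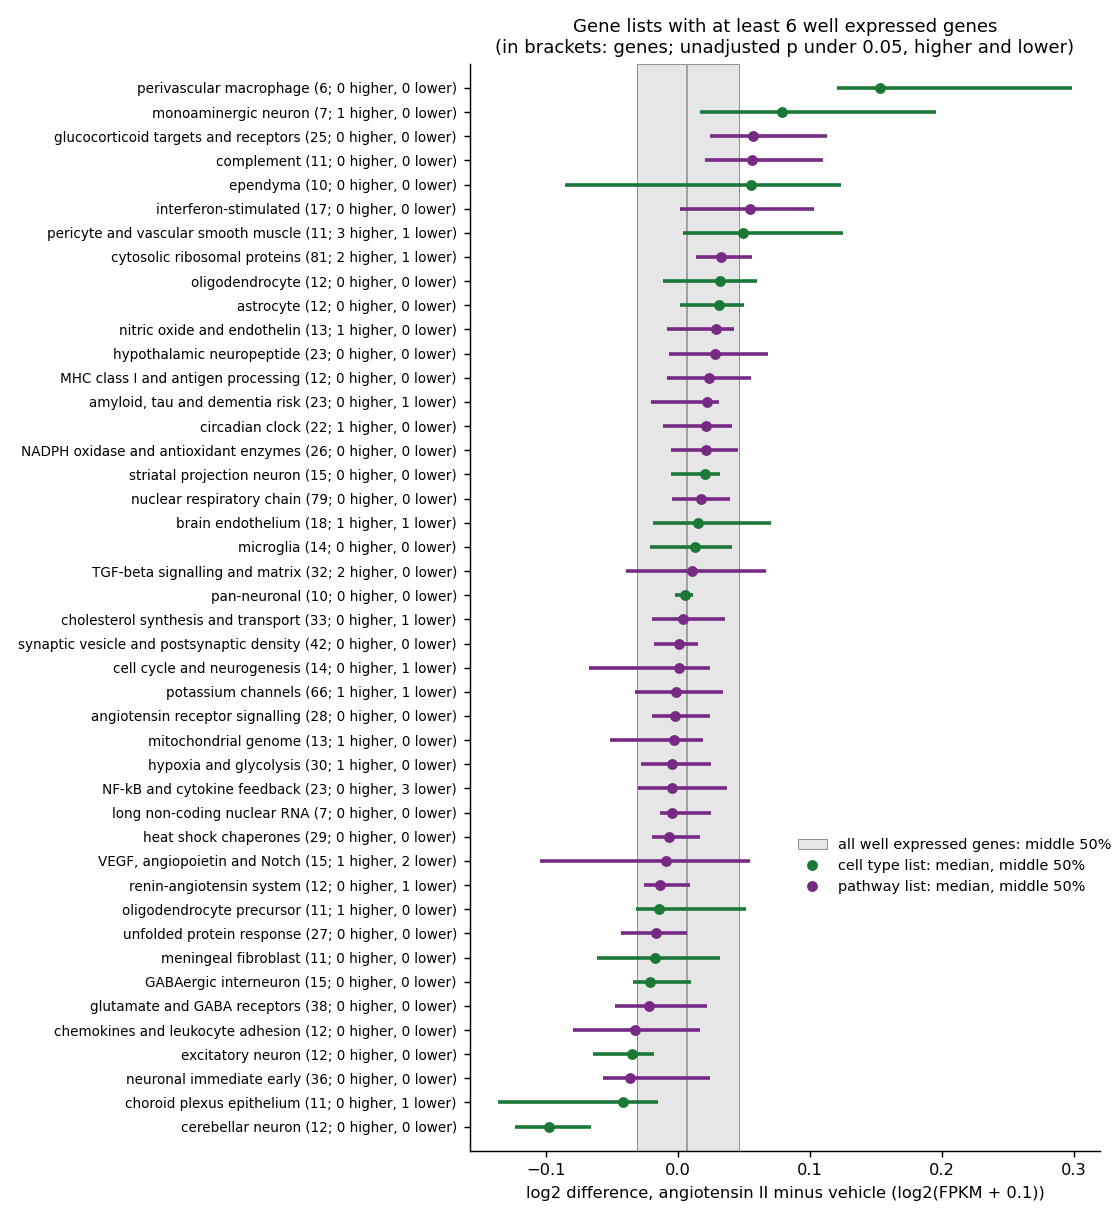
Median (point) and middle 50% (bar) of the log2 differences between angiotensin II and vehicle for the gene lists with at least 6 well expressed genes, ordered by the median, with cell type lists in green and pathway lists in purple. The grey band is the middle 50% of all 13650 genes, and the brackets give the genes of each list and how many were higher or lower at an unadjusted p under 0.05. Most medians lie inside the band, perivascular macrophage genes lie highest at 0.15 and cerebellar genes lowest at -0.10.

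Over the 48 lists, 947 of the 13650 genes were covered, and 31 of these (3.27%) had an unadjusted p under 0.05, beside 3.11% of all genes. No gene passed in 29 lists, and 44 lists had a median between -0.1 and 0.1. The 4 lists with larger medians were those of neutrophils, red cells, the pituitary and perivascular macrophages, with 4, 5, 5 and 6 well expressed genes.

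Genes of protein synthesis and respiration differed little. Of 81 cytosolic ribosomal protein genes, 71 had positive and 10 negative differences, with a median of 0.03, beside 54.8% positive among all genes. In the other 12 mice of the series, which received amnion epithelial cells, the median of this list was -0.01. The unadjusted threshold was passed by 3 of the 81, 2.5% higher and 1.2% lower, beside 1.96% and 1.14% of all genes. Rpl7a was higher, at 21.4 to 40.0 FPKM (median 25.9) with vehicle and 25.6 to 43.7 (median 31.9) with angiotensin II (difference 0.27, SE 0.09, unadjusted p = 0.00828 in limma), and so was Rpl35a by 0.16. Rpl30 was lower by a difference of -0.21. The unadjusted p of Rpl35a was 0.0502 without vehicle mouse 4, that of Rpl30 exceeded 0.05 in 6 of 12 fits without 1 mouse, up to 0.197, and that of Rpl7a in none. Ribosomal protein genes have many near-identical pseudogenes, with which their reads could be shared. The nuclear genes of the respiratory chain gave 0 calls of 79 with a median of 0.02, and the mitochondrial genome gave 1 of 13, with 6 positive and 7 negative differences. That call was mt-Nd4l, a complex I subunit, at 13.2 to 34.5 FPKM (median 27.3) and 19.4 to 66.1 (median 41.0), with a difference of 0.43 (SE 0.18, unadjusted p = 0.0298 in limma), and it overlaps mt-Nd4 on the same strand. Without vehicle mouse 1, 4 or 6 its unadjusted p was at most 0.0706.

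Stress and state pathways gave few calls, beside 3.11% of all genes. Immediate early genes of neuronal activity, heat shock chaperones and the unfolded protein response gave 0 of 36, 29 and 27. Glucocorticoid targets and receptors gave 0 of 25, with a positive difference in 22 of the 25 and a median of 0.06, but the median was -0.07 in the mice with amnion epithelial cells. Among 22 clock genes Per3, a period gene, was the 1 call, at 3.48 to 3.61 FPKM against 3.66 to 4.01 in the low set and 1.68 and 1.82 against 1.85 in the high set (difference 0.11, SE 0.05, unadjusted p = 0.0429 in limma). Single lower genes were Mvk of cholesterol synthesis (-0.14, 1 of 33), Aph1a of gamma-secretase (-0.11, 1 of 23 amyloid, tau and dementia genes) and Sox2 of neural progenitors and glia (-0.10, 1 of 14). Among 66 potassium channel genes Kcns2 was higher by 0.14 and Kcnk12 lower by a difference of -0.21. Each was 1.5% of the list, beside 1.96% higher and 1.14% lower among all genes. Each of these 6 genes had an adjusted p of 1.0 in limma and an unadjusted p over 0.05 in 2 to 10 of the 12 fits without 1 mouse.

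The genes with the lowest p were mostly not members of these lists. In the 10 higher and 10 lower leading genes, absolute log2 differences ran from 0.11 to 2.71 and from 0.15 to 0.37. The 20 were chosen for a low p in these same mice, so fits on most of these mice are not independent support for them. In such fits, all 20 kept an unadjusted p under 0.05 in each of the 12 that left out 1 mouse, and 20 of 20 did so in the low library set alone. Without the library set in the fit, 12 did so. The exact permutation test, on genes already chosen for a low p, gave its smallest possible value of 0.00265 for 6 of the 20 and at most 0.0291 for the rest.

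Cidea, a lipid droplet protein best known from brown fat (chromosome 18, 67343564 to 67367794), had the lowest p. In the low set it was at 2.11 to 2.48 FPKM with vehicle against 3.12 to 3.62 with angiotensin II, whereas the high set had 4.45 and 4.5 against 5.81, so that the groups did not overlap within either set. The difference was 0.48 (SE 0.06, 95% interval 0.35 to 0.61), a 1.40-fold higher level, with an adjusted p = 0.0705 in limma. Across the other settings its adjusted p ran from 0.0250, when the 13650 genes alone were fitted and adjusted over, to 1.0. Cidea had 45 to 132 reads per mouse and overlaps B430212C06Rik on the other strand. Without the library set in the fit its unadjusted p was 0.151.

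Dlx1as, the transcript antisense to the interneuron factor Dlx1, was at 0.536 to 1.07 FPKM with vehicle and 1.102 to 1.77 with angiotensin II, with no overlap (difference 0.64, SE 0.12, adjusted p = 0.582 in limma). The vehicle mean of Dlx1as lay below 1 FPKM, so it passed the level limit through the angiotensin II mice. Its separation from vehicle is thus not independent of that limit. Dlx1 itself was at 4.63 to 6.02 and 4.66 to 5.44 FPKM. Since the use of strand is not given in the sources used here, reads of the pair could be shared. Trmt112, an activator of several methyltransferases, was at 16.4 to 19.2 FPKM against 19.9 to 21.4 in the low set and at 30.5 and 30.9 against 32.7 in the high set (difference 0.20, SE 0.04, adjusted p = 0.851 in limma). Smn1, the splicing assembly factor lost in spinal muscular atrophy, ranged from 4.71 to 6.51 FPKM (median 5.25) with vehicle and from 5.39 to 7.07 (median 5.97) with angiotensin II (difference 0.21, SE 0.05, adjusted p = 1.0 in limma). The adjusted p of every gene named below is likewise 1.0.

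Cd59b, a brake on the membrane attack complex of complement, ranged from 0.651 to 1.21 FPKM (median 0.944) with vehicle and from 0.943 to 1.66 (median 1.22) with angiotensin II, on 16 to 40 reads, a difference of 0.52 (SE 0.13). Cd59b likewise averaged below 1 FPKM with vehicle and passed the level limit through the angiotensin II mice. Its near copy Cd59a averaged 6.49 ± 0.40 FPKM with vehicle and 7.07 ± 1.70 with angiotensin II (SD, n = 6 each), and reads could be split between them. Thnsl1, related to threonine synthases, ranged from 2.61 to 3.61 FPKM and from 3.29 to 3.87, a difference of 0.20 (SE 0.06). The non-coding Gm16062, antisense to Cops3, was higher by 0.72 (SE 0.18). Trbj2-7, a short T cell receptor segment, had the largest of these differences but a median of 1 read per mouse, and 3 of 6 vehicle mice had none. Epas1 and Eln, given above, complete the higher genes.

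Endog, a mitochondrial nuclease named by the study from these mice, led the lower genes. It was at 11.0 to 11.5 FPKM with vehicle and 7.52 to 11.0 with angiotensin II in the low set, and at 15.8 and 16.5 against 11.8 in the high set (difference -0.35, SE 0.08). Lmo1, a transcriptional cofactor, was at 8.25 to 8.64 FPKM against 7.25 to 8.02 in the low set and at 13.3 and 14.4 against 11.96 in the high set (difference -0.15, SE 0.04), and the groups did not overlap within sets. Pcdhb3, a clustered protocadherin of neuronal recognition, ranged from 0.973 to 1.57 FPKM (median 1.37) with vehicle and from 0.806 to 1.21 (median 1.07) with angiotensin II (difference -0.37, SE 0.09). Btd, the enzyme that recycles biotin, was at 5.14 to 5.73 FPKM against 4.12 to 5.44 in the low set and at 7.98 and 8.78 against 6.46 in the high set (difference -0.27, SE 0.07).

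Il17d, a cytokine of the interleukin 17 family, ranged from 19.0 to 29.2 FPKM (median 19.9) with vehicle and from 16.0 to 20.4 (median 18.7) with angiotensin II (difference -0.21, SE 0.06). The remaining lower genes were Dnph1, a nucleotide hydrolase (-0.37), Spryd4 (-0.27), Phpt1, a histidine phosphatase (-0.25), Zdhhc13, a palmitoyltransferase (-0.22), and the non-coding Tmem147os (-0.17). Endog overlaps Spout1, Btd overlaps Hacl1 and Spryd4 overlaps Gls2 on the opposite strand, and Phpt1 overlaps Mamdc4 on the same strand, so reads could be shared with these genes. The same holds for Trmt112 with Prdx5 and Esrra, Nos3 with Atg9b, Timp3 with Syn3, Per3 with Camta1, Jak3 with Insl3, Cebpb with Tmem189, Otx2 with Otx2os1, Sox2 with Sox2ot, Aph1a with Car14 and Mas1 with Airn.

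**Figure D4:**
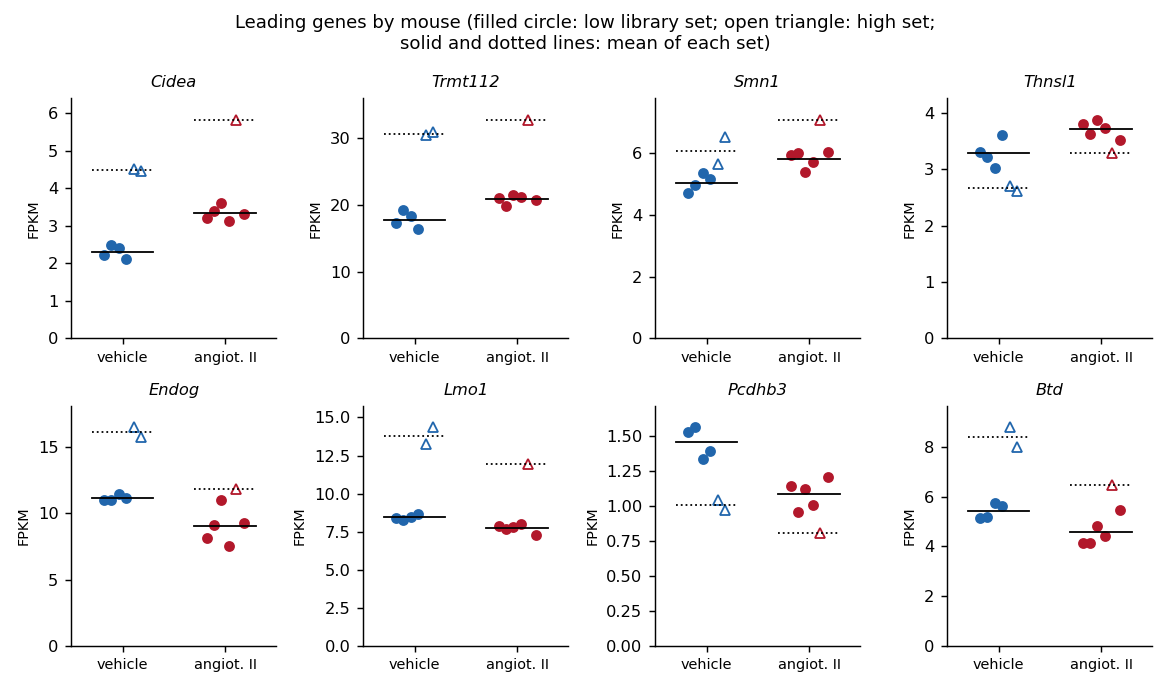
FPKM of 8 of the genes with the lowest p in each of the 6 vehicle mice (blue) and 6 angiotensin II mice (red), on axes that start at 0. Filled circles and solid lines are mice and mean of the low library set, and open triangles and dotted lines those of the high set. In Cidea, Trmt112, Smn1, Lmo1 and Pcdhb3 the groups do not overlap within either set, although the offset between sets is larger than that between groups in Cidea, Trmt112 and Lmo1.

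The other 12 mice of the series gave a second comparison that shares no animal with the first. Those 6 vehicle and 6 angiotensin II mice had the same infusions and received amnion epithelial cells, human cells of the placental amnion, in place of the saline injection. In the same fit, 370 of the 13650 genes (2.71%) had an unadjusted p under 0.05 and 0 an adjusted p under 0.05, with a lowest adjusted p of 0.813 in limma. Genes are not independent replicates, and over them the differences of the pairs of groups had a correlation of r = 0.065. The sign was shared by 54.2% of all 13650 genes and by 269 of the 424 genes (63.4%). An unadjusted p under 0.05 in both comparisons was found for 21 genes, of which 18 had the same direction, 4.25% of the first list and 4.86% of the second.

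Of the 20 leading genes, 14 had the same sign in the second comparison and 2, Eln and Il17d, reached an unadjusted p under 0.05 there. The difference of Eln was 0.34 (SE 0.12, unadjusted p = 0.0130 in limma) beside 0.35 in the first comparison, and that of Il17d was -0.09 (SE 0.03, unadjusted p = 0.0200 in limma). Cidea had a difference of -0.08 (SE 0.10) in the mice with amnion epithelial cells. The neutrophil genes were higher again, S100a8 by 0.88 (SE 0.38), S100a9 by 1.03 (SE 0.44) and Ngp by 1.26 (SE 0.44), with unadjusted p of 0.0377, 0.0367 and 0.0147 in limma. Red cell genes had a median difference of 0.43 there, beside 0.45 in the first comparison, with 0 of 5 under the unadjusted threshold. The part of residual blood in this repeat was not tested. Cebpb was lower again by a difference of -0.22 (SE 0.09). The others of the 18 were higher for Hmgn2, Lgals9, Panx1, Tmem86a, Hist1h4i, Rps3a3, Gm8797 and Gm28876, and lower for Camkmt, Mir3072, Rpl7a-ps11 and Gm14114. Mural genes did not pass there, with differences of -0.04 for Rgs5, 0.06 for Pdgfrb, 0.14 for Acta2 and -0.02 for Notch3. A test of the difference between the 2 effects, as an interaction over all 24 mice, gave 0 of the 13650 genes an adjusted p under 0.05 in limma and 298 an unadjusted one.

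**Figure D5:**
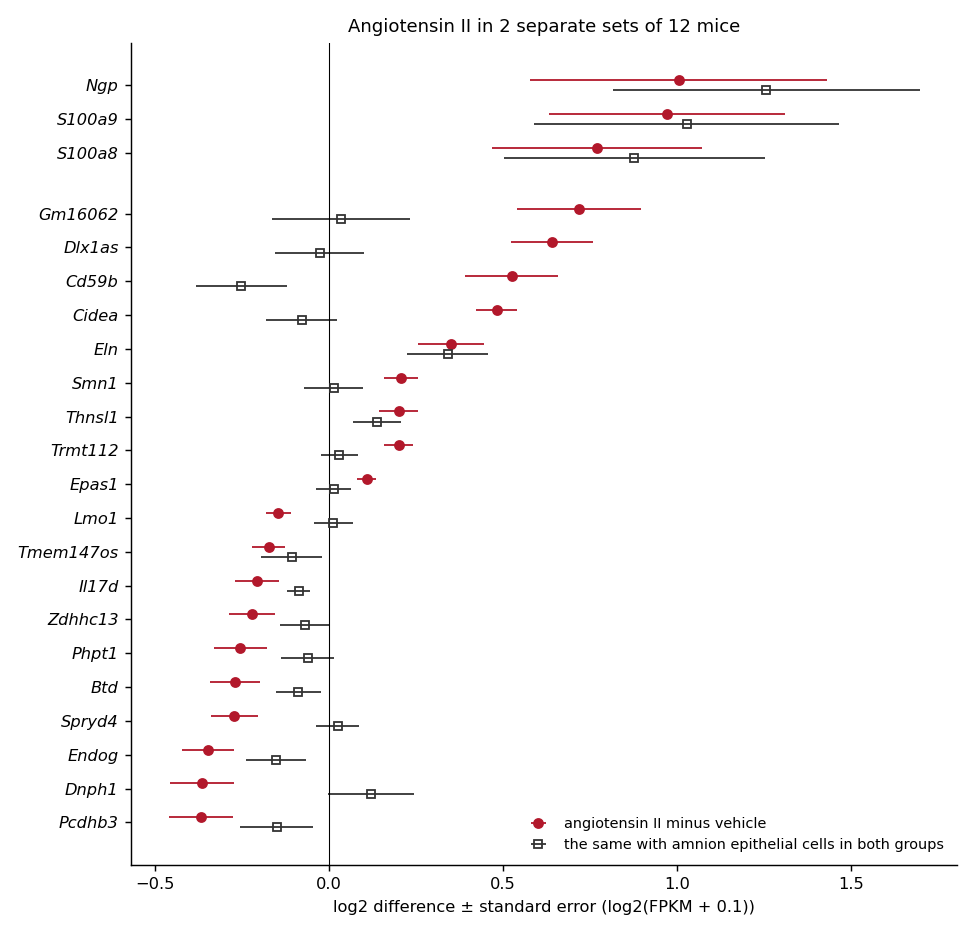
Log2 difference between angiotensin II and vehicle, with its standard error, in mice with saline injection (red circles) and in the other mice, which received amnion epithelial cells (open squares), for 19 of the 20 leading genes and for 3 neutrophil genes at the top. Leading genes were chosen for a low p in the red comparison. Eln lies at 0.35 and 0.34 and the neutrophil genes lie above 0.7 in both, while Cidea, Dlx1as and Cd59b are above 0 in the first comparison and below 0 in the second.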

How the data were processed

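The authors deposited 1 table of FPKM with a column per mouse, and no sample column was left unused. Per the study's methods, poly-A RNA was sequenced and mapped to the Ensembl mouse genome. Coordinates are GRCm38, and DESeq 1.10.1 is named in the submitters' processing notes. The aligner, counter and use of strand are not given in the sources used here. Multiplied by gene length, 100% of FPKM were whole multiples of 1 read (tolerance 0.01), which gave the reads. Values of log2(FPKM + 0.1) of genes above 0 in at least 6 of 12 mice were fitted with limma 3.58.1 (R 4.3.3, eBayes with trend) on group and library set, meaning whether a library's FPKM summed to over 320000. The exact permutation test, two-sided, moved group labels within sets. An alternative used limma voom on the recovered reads, scaled by median ratios. Scripts were checked on simulated data. The labels give 6 mice per group as separate animals.

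The genes and the 48 lists were chosen with earlier results of these data known. Named genes were the 10 higher and 10 lower genes of lowest p (clone names and pseudogenes only among the first 5), the list genes of lowest p or highest level, and the renin-angiotensin genes, some of which are not reported here. The comparison with amnion epithelial cells and an elastic fibre list were added after the values were seen. Plots were made with Python 3.11.15 and matplotlib 3.10.9.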

Additional observations from a re-analysis of the deposited data

Results flagged for a closer look

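Among the 20 leading genes, each group of 6 mice was examined for a single mouse apart from the rest, by the gap to its nearest neighbour as a share of the range (Dixon's test). Of 40 groups, 6 were flagged, each at a mouse of the high library set. The values were used without removing the set, and angiotensin II mouse 5 is the only high-set mouse of its group. An offset between the sets alone can flag it, so the usual chance rate of about 1 in 20 groups does not hold here. Angiotensin II mouse 5 was the highest mouse of its group in Cidea (0.815), Trmt112 (0.878), Epas1 (0.665), Eln (0.677) and Lmo1 (0.836). Vehicle mouse 6 was the highest of its group in Trbj2-7 (0.629).

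The effect of angiotensin II differed between mice without and with amnion epithelial cells in 8 of the 20 leading genes at an unadjusted p under 0.05, by the interaction in limma over all 24 mice. The genes were chosen for a low p in the mice without the cells, and no adjusted interaction p was under 0.05. The interaction p was 0.000611 for Cidea, 0.000585 for Dlx1as, 0.0242 for Trmt112, 0.0186 for Gm16062, 0.000309 for Cd59b, 0.0237 for Lmo1, 0.00555 for Dnph1 and 0.00362 for Spryd4.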

How the results depend on the processing

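The number of genes with an adjusted p under 0.05 was 0 in limma in every setting but 1: it was 1 (Cidea) when the 13650 genes alone were fitted. Dropping the library set left 101 genes at an unadjusted p under 0.05, of which 47 were higher and 54 lower. With a mean FPKM of at least 5, the numbers were 210, 142 and 68. With voom on the recovered reads, scaled by median ratios because the planned TMM factors were not run, 131 were higher, and with the replicate block without the library set 153. The replicate numbers did not pair the mice (2 of 6 mice correlated best with their own number), and the replicate block beside the library set gave 437 genes. Leaving out 1 mouse gave 405 to 535 genes, 237 to 371 higher and 142 to 200 lower, with 0 adjusted. The difference of Acta2 was -0.0518 without the library set and also with the replicate block without it. The other fits kept the direction of the single genes given with a p in them. The causes were not tested.

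Depth limits the weakly expressed genes most. The median 95% interval reached 0.139 to either side, so for a typical gene the interval of a smaller estimate included 0. Genes with a smaller standard error, such as Epas1, had an unadjusted p under 0.05 in limma at smaller differences.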

Other observations

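Elastic fibre genes were gathered after Eln, Mgp and the fibulins Efemp1 and Efemp2 had been seen among the higher genes, so the list carries no test. Of 23 genes of elastic fibre assembly, 15 were well expressed and 12 of these were higher. An unadjusted p under 0.05 was found for 4, all higher, and these were Eln, Mgp, Efemp1 and Efemp2, which had prompted the list. Their number was thus fixed by how the list was made and cannot be read as an excess over the 1.96% of all 13650 genes. The median difference was 0.10. Mgp, matrix Gla protein, which keeps calcium out of arterial elastic layers, was at 18.7 to 19.99 FPKM with vehicle and 18.7 to 24.7 with angiotensin II in the low set, and at 26.7 and 35.4 against 44.0 in the high set (difference 0.23, SE 0.09). Efemp1 was at 4.30 to 5.19 FPKM against 5.11 to 5.70 in the low set and at 4.99 and 5.74 against 5.79 in the high set (difference 0.16, SE 0.06). Efemp2, which elastin assembly needs, was at 4.65 to 5.43 FPKM against 5.48 to 6.07 in the low set, with no overlap, and at 7.91 and 8.07 against 7.89 in the high set (difference 0.15, SE 0.05). Without the library set in the fit none of the 15 passed the unadjusted threshold. With limma voom on the recovered reads, Eln and Mgp passed it and Efemp1 and Efemp2 did not, while Ltbp2 passed it in the lower direction with a difference of -0.26. In the mice with amnion epithelial cells the median of the list was 0.00, 1 gene (Eln) was higher and 1 (Ltbp2) lower at an unadjusted p under 0.05 in limma, and Mgp had a difference of 0.14 (SE 0.10).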
